A study of Mus musculus with 27 samples.

Results

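The Hoxd cluster of the mouse is the subject here, namely the genes Hoxd1, Hoxd3, Hoxd4, Hoxd8, Hoxd9, Hoxd10, Hoxd11, Hoxd12 and Hoxd13. They were taken by name, without use of their values, and make up 9 of the 23279 genes in the deposited expression table. Each had a value in all 27 RNA-seq libraries, so that none was lost. The libraries form 9 groups of 3. They come from a study that grew limb bud mesenchyme from mouse embryonic stem (ES) cells and set it beside embryonic tissues.

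The embryonic groups were dissected from Slc:ICR mouse embryos (3 embryos in the study's methods) and comprised the forelimb bud (FLB) and the hindlimb bud (HLB) at an early stage and at E10.5, and the branchial arch (BA), the heart (Ca) and the tail bud (TB) at E10.5. The early buds of both limbs carry E10.0 as their age in the labels, whereas the figure legend of the study places the early FLB before and the early HLB after that age, so the early FLB and the early HLB may not be of 1 age. ES-FLB and ES-HLB were made from the line EB5 Hand2::GFP +/-, in which 1 allele of Hand2 carries a green fluorescent reporter. Aggregates of these cells received BMP4 and Matrigel first, then retinoic acid for the forelimb type or an antagonist of retinoic acid for the hindlimb type, and later LDN193189, an inhibitor of BMP signalling, and Wnt3. On day 9 the GFP-positive mesenchyme was sorted away from the epidermis-like layer. Both ES groups thus stem from 1 engineered line and were sorted for the reporter, while every embryonic group is whole tissue, with ectoderm, vessels and blood. For the 3 libraries of a group, the spread may be technical in part, since the labels do not state how far the samples are independent, and p-values measure only that spread.

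Hox genes encode homeodomain transcription factors that give cells of the trunk and the limb a position along the body axes. The genes of a cluster lie in a fixed order, and as a rule those at the Hoxd1 end are switched on earlier and further to the head than those at the Hoxd13 end. In the growing limb bud Hoxd8 to Hoxd11 take part in building the upper and lower limb, while Hoxd11 to Hoxd13 become active late, first in the posterior bud near the source of Sonic hedgehog and then in the presumptive digits, and mutations of HOXD13 in people cause fused and extra digits. Hoxd1, Hoxd3 and Hoxd4 are better known from the hindbrain, neck and trunk, Hoxd3 and Hoxd4 from the cervical vertebrae.

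The values are CPM, reads of a gene per 1000000 reads of the library, and are given after scaling between libraries. Reads on genes, worked out from the spacing of low values, were between 19642244 and 22142300 in the early limb buds, between 5543755 and 5908845 in the E10.5 limb buds apart from 1 library, and between 6569891 and 8541931 in the other groups. Depth therefore differs with stage, and depth and stage cannot be told apart. Replicate 2 of the E10.5 HLB (3661845 reads) is truncated. It has 3965 genes at 0 that the rest of its group expresses, on chromosomes 5, 6, 7, 8, 9, X and Y and on the far part of 4. Values of all genes of these regions, and of any gene lost elsewhere, were set to missing, 8338 in total. The Hoxd genes lie on chromosome 2 and keep their values there, but the CPM of this library as deposited are too high for all remaining genes, which a scaling factor of 1.51 corrects (0.869 to 1.06 in the other libraries). The value of 3 reads was between 0.152 and 0.551 CPM. Intervals and this floor cover counting error only, since reads of amplified libraries are not independent molecules. The tissues carried their defining markers. Tbx5 was at 164 CPM in the E10.5 FLB and 71.4 in ES-FLB, Tbx4 at 167 in the E10.5 HLB and 56.8 in ES-HLB, T at 130 in TB, Barx1 at 167 in BA and Myh6 at 2663 in Ca.

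The 9 genes occupy 96.9 kb of chromosome 2, chr2:74668225-74765142 in GRCm38 (mm10), all on the plus strand, with Hoxd13 first and Hoxd1 last. Distances between neighbouring starts run from 4.54 kb, between Hoxd12 and Hoxd11, to 41.0 kb, between the starts of Hoxd4 and Hoxd1. The annotated Hoxd3 gene, chr2:74711993-74748271, encloses Hoxd4, chr2:74721978-74729160, and shares 388 exonic bases with it on the same strand, so that reads there could have been given to either. Both also share 347 exonic bases with the antisense transcript Hoxd3os1. Hoxd3 and Hoxd4 share 2225 and 1154 exonic bases with the transcript Gm28230 on their own strand. The library kit marks the strand, but the strand setting of the counting is not given in the sources used here. Values of Hoxd3 and Hoxd4 are uncertain where these exons overlap. Hoxd11 and Hoxd10 share 455 and 104 exonic bases with the transcript Gm28309 on their own strand.

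Promoter sequences are shown for the genes on which the results turn, the 3 at the Hoxd13 end, which rose together in the FLB, and Hoxd1 at the other end, which fell. The 250 bases before the RefSeq start of each gene were taken from RefSeq (GRCm38.p6), plus strand, 5′ to 3′. They lie at chr2:74667975-74668224 for Hoxd13, chr2:74674763-74675012 for Hoxd12, chr2:74679308-74679557 for Hoxd11 and chr2:74762730-74762979 for Hoxd1. Hoxd11 has a second RefSeq start further downstream, and the first, which matches the start of the annotated gene, was used. Capitals mark matches to the motifs searched.
Hoxd13: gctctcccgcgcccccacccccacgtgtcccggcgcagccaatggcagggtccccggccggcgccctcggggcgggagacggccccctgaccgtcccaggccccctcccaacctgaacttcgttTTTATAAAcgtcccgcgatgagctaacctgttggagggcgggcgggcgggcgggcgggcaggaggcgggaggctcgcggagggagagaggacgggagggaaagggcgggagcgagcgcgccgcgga
Hoxd12: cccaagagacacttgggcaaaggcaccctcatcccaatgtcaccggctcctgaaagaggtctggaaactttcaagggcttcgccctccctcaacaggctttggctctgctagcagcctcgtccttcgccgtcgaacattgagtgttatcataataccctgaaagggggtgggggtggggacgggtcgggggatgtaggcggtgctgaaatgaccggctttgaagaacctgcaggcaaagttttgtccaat
Hoxd11: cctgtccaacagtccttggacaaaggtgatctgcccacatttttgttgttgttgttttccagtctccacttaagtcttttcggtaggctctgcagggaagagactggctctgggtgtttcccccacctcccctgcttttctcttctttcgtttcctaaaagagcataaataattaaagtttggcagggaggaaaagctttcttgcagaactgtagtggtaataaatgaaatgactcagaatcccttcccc
Hoxd1: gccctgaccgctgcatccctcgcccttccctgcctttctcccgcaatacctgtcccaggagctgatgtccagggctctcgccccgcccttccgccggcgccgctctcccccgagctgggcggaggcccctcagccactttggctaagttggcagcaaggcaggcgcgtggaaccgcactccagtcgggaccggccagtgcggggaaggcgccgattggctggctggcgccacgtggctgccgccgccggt

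The windows differ in make-up although the first 3 genes rose together. G and C made up 74.4% of the Hoxd13 window with 31 CpG, 55.6% of the Hoxd12 window with 10 CpG, 44.8% of the Hoxd11 window with 2 CpG and 71.6% of the Hoxd1 window with 24 CpG. Over all 9 genes the median was 55.6% with 12 CpG, and over all 32851 windows of the same length 52.4% with 6. Among the 9, the Hoxd10 window, chr2:74691641-74691890, lies downstream of the start of the annotated gene at 74684273. CTCGTAAA and CTCATAAA, 2 forms of a motif bound by HOX13 proteins, and GACCACCC, a motif of GLI factors, were searched on both strands and none of the 9 windows held them, against 0.11%, 0.81% and 0.703% of all windows. TATAAA was in 2 of the 9, Hoxd13 and Hoxd4, against 12.4% of all windows. In Hoxd13 it matched on both strands at overlapping places, which gives the capitals above. No match says only that these letters are not in these windows.

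**Figure D1:**
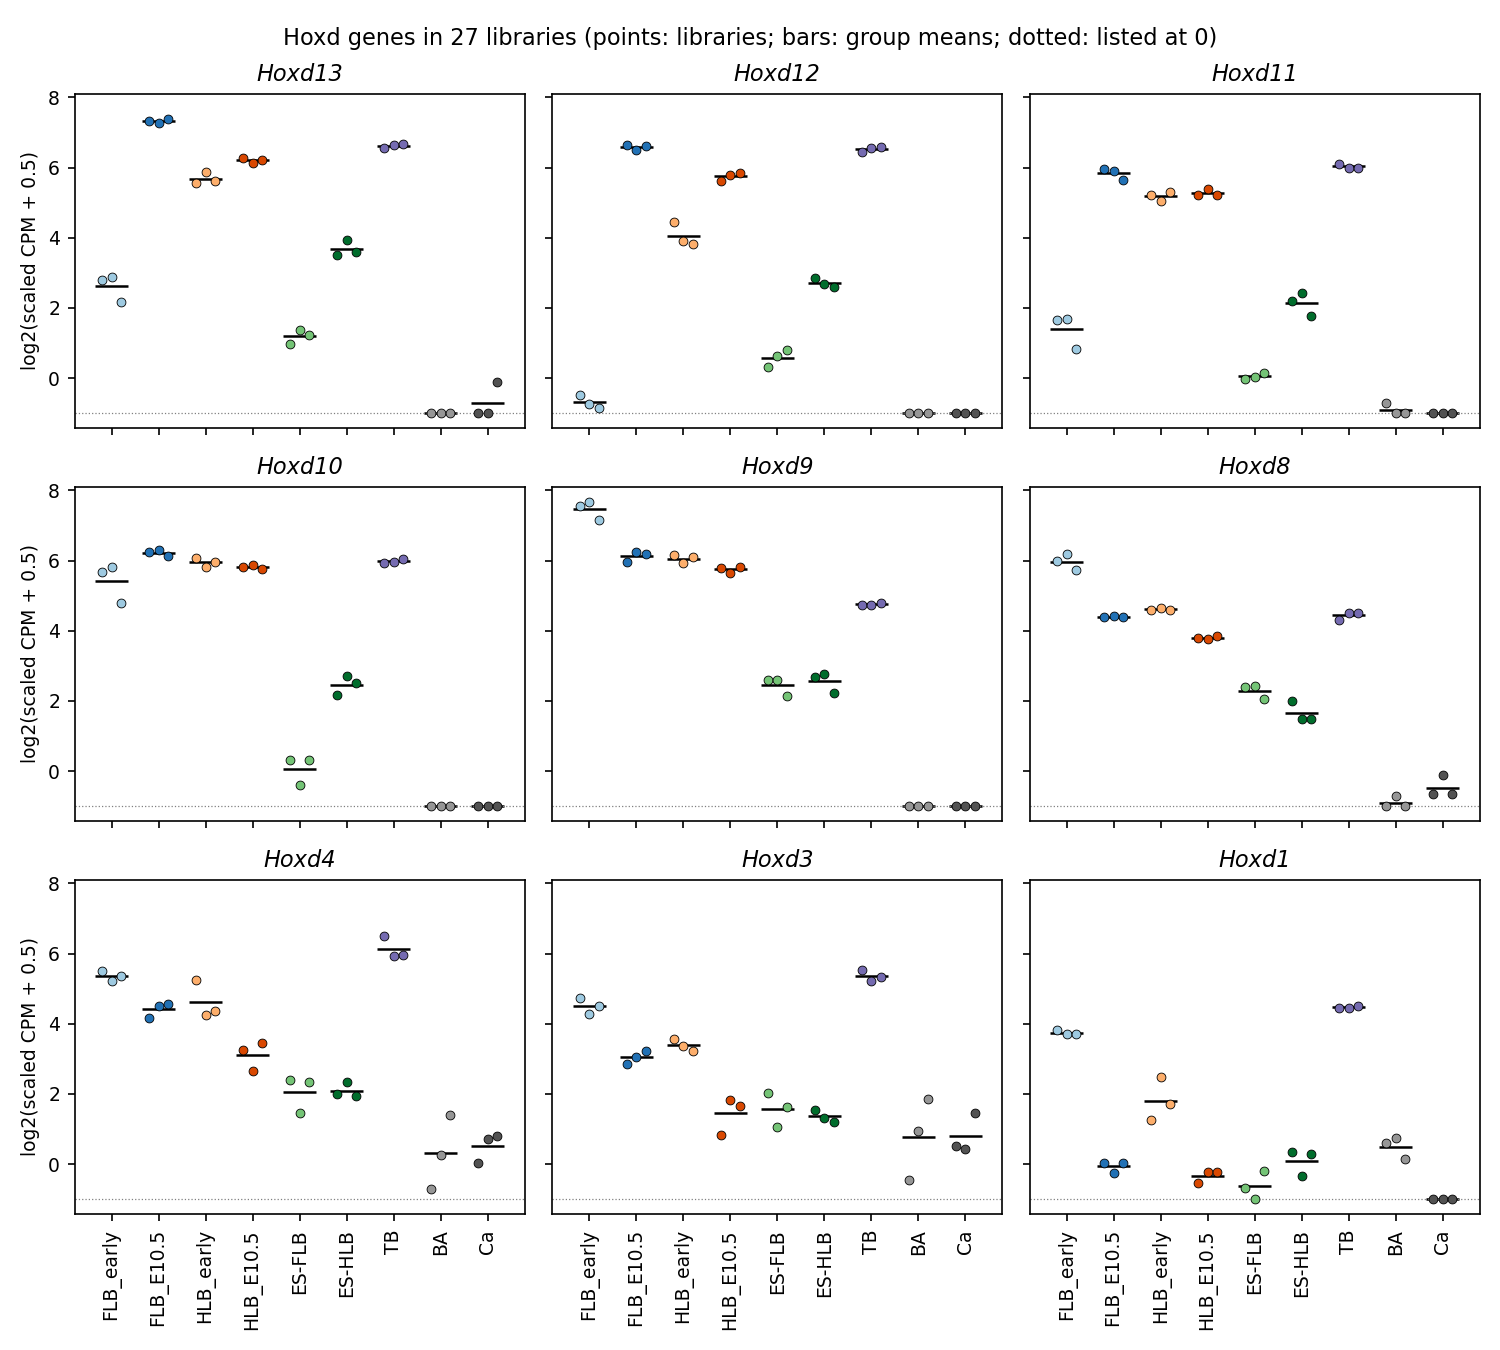
Each panel shows 1 Hoxd gene, with the 9 groups on the x axis and log2(scaled CPM + 0.5) on the y axis. Points are libraries, bars are means of 3, and the dotted line is a gene listed at 0. Hoxd11 to Hoxd13 are low in the early FLB and high in the E10.5 FLB, Hoxd1 shows the opposite, and all 9 genes are near the dotted line or low in BA and Ca.

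Growth of the FLB from the early stage to E10.5 came with opposite changes at the ends of the cluster. Hoxd13, which specifies the digits, was at 6.51, 6.86 and 3.96 CPM in the 3 early libraries and at 159, 153 and 167 CPM at E10.5. Replicate 3 was the lowest of the early libraries, and the stages were far apart. The log2 fold change was 4.71 ± 0.19 (SE, n = 3 per group), a 26.1-fold rise, with an adjusted p of 9.96e-07 (limma, Benjamini-Hochberg). Hoxd12 had 0.212, 0.104 and 0.0536 CPM early, which are 4, 2 and 1 reads, and 100, 89.9 and 97.5 CPM at E10.5. The early values are at or below the floor in 2 of 3 libraries, so that the fitted log2 fold change of 7.28 ± 0.15 (adjusted p = 2.40e-16) depends on the pseudocount. The ratio of the levels from 1674 and 7 reads was 777 (95% interval 377 to 1937, counting error only). Hoxd11, a gene of the lower limb and the posterior bud, went from 2.64, 2.70 and 1.29 CPM to 62.3, 59.2 and 49.9 CPM. This was a 21.9-fold rise (log2 4.45 ± 0.22, adjusted p = 4.93e-08).

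The middle of the cluster behaved differently from gene to gene. Hoxd10 had 50.5, 55.8 and 27 CPM early and 75.1, 78.7 and 69.1 at E10.5, without overlap, but the early libraries were widely spread. The difference of 0.80 ± 0.32 on the log2 scale did not pass (adjusted p = 0.0919), while without the early replicate 3 it was 0.48 with an adjusted p of 1.45e-05. Hoxd9 was the most abundant Hoxd gene per length in the early FLB. It had 189, 204 and 143 CPM early and 61.3, 75.4 and 72.8 at E10.5, again without overlap. Its log2 fold change of -1.34 ± 0.16 had an adjusted p of 0.00114, just above the threshold of 0.001 used for stages, and of 1.59e-11 without the early replicate 3. Hoxd8, a trunk and proximal limb gene, fell from 62.5, 72.2 and 52.8 CPM to 20.3, 21.1 and 20.7 CPM (log2 -1.56 ± 0.09, adjusted p = 5.25e-10).

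At the Hoxd1 end all 3 genes fell in the FLB. Hoxd4 fell 1.93-fold, from 36.9 to 44.6 CPM over the early libraries to 17.4 to 23.0 CPM (adjusted p = 8.77e-07), and Hoxd3 fell 2.76-fold, from 18.9 to 26.2 CPM to 6.72 to 8.79 CPM (adjusted p = 3.81e-08). With all 27 libraries in 1 model neither passed (adjusted p = 0.0502 for Hoxd4 and 0.00400 for Hoxd3), while Hoxd9 and Hoxd10 did (3.86e-10 and 0.000385), and Hoxd4 did not pass with limma without trend and robust estimation (0.00106). Hoxd1 had 13.6, 12.5 and 12.7 CPM early and 0.517, 0.334 and 0.527 CPM at E10.5, which are 3, 2 and 3 reads. It was thus plainly present at the early stage and close to the floor later. The ratio from 735 and 8 reads was 28.3 (95% interval 14.3 to 65.7), and the fitted log2 fold change was -3.81 ± 0.19 (adjusted p = 9.72e-12). In all, 3 of the 9 genes rose and 4 fell, where 42.8% of the 12761 genes tested passed in either direction. Of these, Hoxd12 and Hoxd1 reached the filter only through the stage where they were high. The median over the 9 was -0.95 on the log2 scale against -0.06 over all genes. Summed levels of other cells moved too. The 6 markers of surface ectoderm and its ridge all had a mean of 1 CPM or more in both stages, and their sum was 339 to 434 CPM early and 189 to 209 CPM at E10.5, whereas the 7 markers of limb mesenchyme summed to 757 to 805 and then 1136 to 1156 CPM. Members of the mesenchyme list went different ways. Means of Prrx1 (382 to 685 CPM), Tbx5 (99.7 to 164), Hand2 (91.2 to 152) and Tbx4 (0.774 to 12.1) were higher at E10.5. Those of Prrx2 (131 to 101), Fgf10 (71.2 to 32.5) and Pitx1 (7.86 to 0.86) were lower. In whole tissue a smaller share of cells of a type and less RNA per cell cannot be told apart, and the part of these shifts in the Hoxd values was not tested.

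In the HLB, whose early stage may not match that of the FLB, Hoxd12 and Hoxd13 rose and Hoxd8, Hoxd3 and Hoxd1 fell. Hoxd12 had 21.5, 14.4 and 13.7 CPM early and 48.3, 54.9 and 56.6 CPM at E10.5, a 3.21-fold rise (log2 1.68 ± 0.15, adjusted p = 5.82e-05). Hoxd13 had 46.7, 57.8 and 49.0 CPM early and 77.5, 69.7 and 73.7 CPM later, a 1.44-fold rise (adjusted p = 0.000275). Groups did not overlap for either gene. Hoxd11 stayed between 32.6 and 41.5 CPM over the 6 libraries, with overlap (log2 0.09, 95% interval -0.10 to 0.27), and Hoxd10 between 53.9 and 66.6 CPM (log2 -0.13, 95% interval -0.28 to 0.03).

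Genes nearer the Hoxd1 end were lower in the E10.5 HLB. Hoxd8 fell 1.74-fold, from 23.6 to 24.5 CPM to 13.2 to 13.9 CPM (adjusted p = 4.46e-05), Hoxd3 fell 3.82-fold, from 8.82 to 11.3 CPM to 1.29 to 3.07 CPM (adjusted p = 7.27e-05), and Hoxd1 fell from 1.88, 5.08 and 2.77 CPM to 0.184, 0.361 and 0.357 CPM, or 5 reads in the group (ratio 10.7, 95% interval 4.49 to 33.3, adjusted p = 0.000204). Hoxd9 and Hoxd4 did not pass. Hoxd9 had 59.9 to 71.3 CPM early and 50.0 to 56.2 CPM later (adjusted p = 0.00762), and Hoxd4 37.2, 18.7 and 20.1 CPM early and 9.00, 5.78 and 10.4 CPM later (adjusted p = 0.0157). In all, 2 of 9 rose and 3 fell, where 8.37% of 12491 genes passed in either direction. Of these, Hoxd1 reached the filter only through the early HLB. These calls are fragile. Their number was 3 without the E10.5 replicate 1, the truncated E10.5 replicate 2 or the early replicate 3, 1 without the E10.5 replicate 3, 6 without the early replicate 1, and 0 with limma without variance trend and robust estimation, while every fold change of a called gene kept its direction. With all 27 libraries in 1 model Hoxd13 did not pass (adjusted p = 0.0229).

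**Figure D2:**
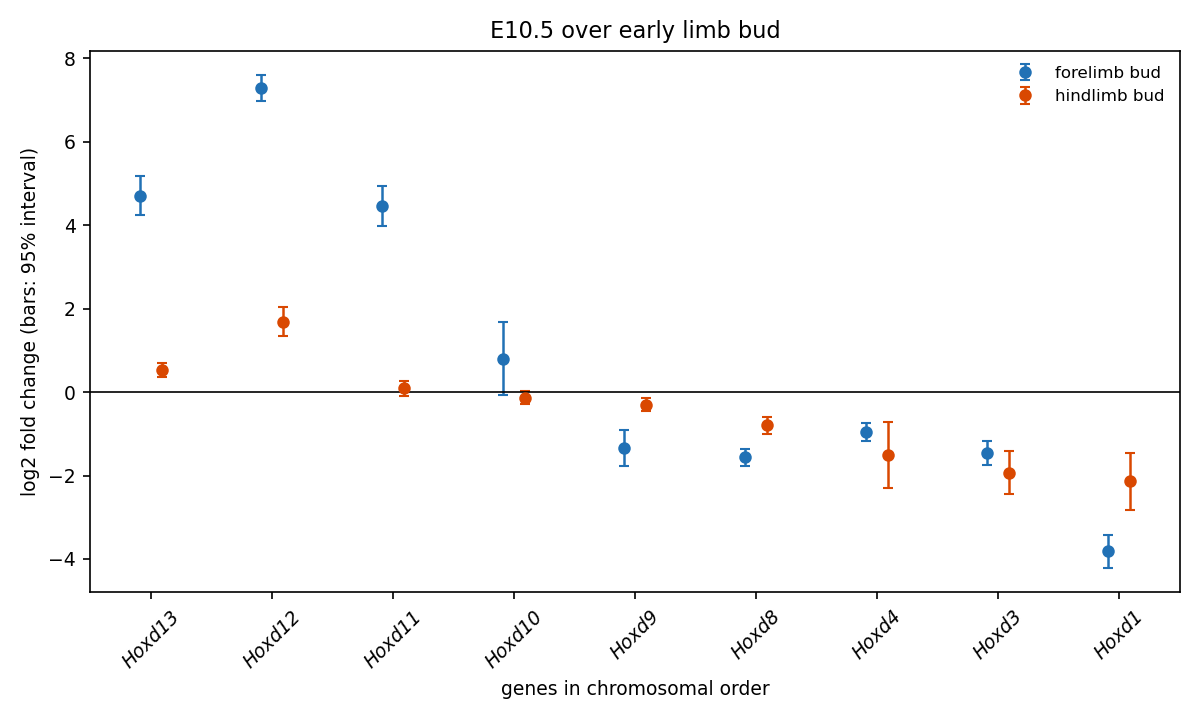
The x axis shows the 9 Hoxd genes in chromosomal order from Hoxd13 to Hoxd1, and the y axis the log2 fold change of E10.5 over the early limb bud with its 95% interval, in the forelimb and the hindlimb. Forelimb values lie between 7.28 at Hoxd12 and -3.81 at Hoxd1, and hindlimb values between 1.68 at Hoxd12 and -2.14 at Hoxd1.

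Whether the stages changed the cluster differently in the limbs was tested as the difference between both stage effects, over 12 libraries. For 6 of the 9 genes this difference passed an adjusted p of 0.05, where 25.3% of 13045 genes did. Hoxd11, Hoxd12 and Hoxd13 had a smaller stage effect in the HLB than in the FLB, with log2 differences of -4.36 ± 0.27, -5.60 ± 0.20 and -4.18 ± 0.23 and an adjusted p of 4.50e-07, 9.48e-14 and 6.79e-07. Hoxd1, Hoxd8 and Hoxd9 had a less negative stage effect in the HLB, with differences of 1.67 ± 0.36, 0.76 ± 0.13 and 1.04 ± 0.18 (adjusted p = 0.00190, 0.000308 and 0.00176). Hoxd3, Hoxd4 and Hoxd10 did not pass, with 95% intervals of -1.09 to 0.14, -1.46 to 0.35 and -1.69 to -0.17. The last lies below 0, and Hoxd10 passed without the early FLB replicate 2 or 3 (adjusted p = 0.0317 and 0.000436) and with all 27 libraries in 1 model (0.00949). The early buds entered this test, and their ages may differ between the limbs.

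The share of each gene in the cluster's RNA was also followed. Levels of different genes were compared as CPM per kb of 1 coding transcript each. The transcript used for Hoxd11 has 1111 bases, and those of the other genes have 1816 to 2968. Levels per kb of Hoxd11, and shares that include it, depend on this short length. The 9 genes summed to 370 ± 57.8 CPM (SD, n = 3) in the early FLB, 507 ± 3.2 in the E10.5 FLB, 294 ± 20.1 in the early HLB and 300 ± 4.43 in the E10.5 HLB. Hoxd11 to Hoxd13 together made up 2.57% ± 0.445 of the sum per kb in the early FLB and 62.4% ± 2.15 in the E10.5 FLB. In the HLB the share was 40.2% ± 1.97 early and 56.6% ± 0.944 at E10.5, so the groups did not overlap in either limb. Hoxd1 to Hoxd4 held 18.6% ± 3.81 in the early FLB, 4.49% ± 0.645 in the E10.5 FLB, 10% ± 1.97 in the early HLB and 2.80% ± 0.547 in the E10.5 HLB. The leading gene per kb was Hoxd9 in the early FLB (83.6 ± 14.9 CPM per kb), Hoxd13 in the E10.5 FLB (64.3 ± 2.82), Hoxd10 in the early HLB (33.8 ± 3.01) and Hoxd11 in the E10.5 HLB (34.5 ± 2.47). In the early HLB, Hoxd11 (32.5 ± 2.89) and Hoxd9 (31.0 ± 2.70) lay within the spread of Hoxd10. In CPM, without division by length, Hoxd13 led in the E10.5 HLB with a mean of 73.7, and Hoxd11 was at 38.4. Hoxd9 (66.2) was above Hoxd10 (61.4) in the early HLB by that measure.

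**Figure D3:**
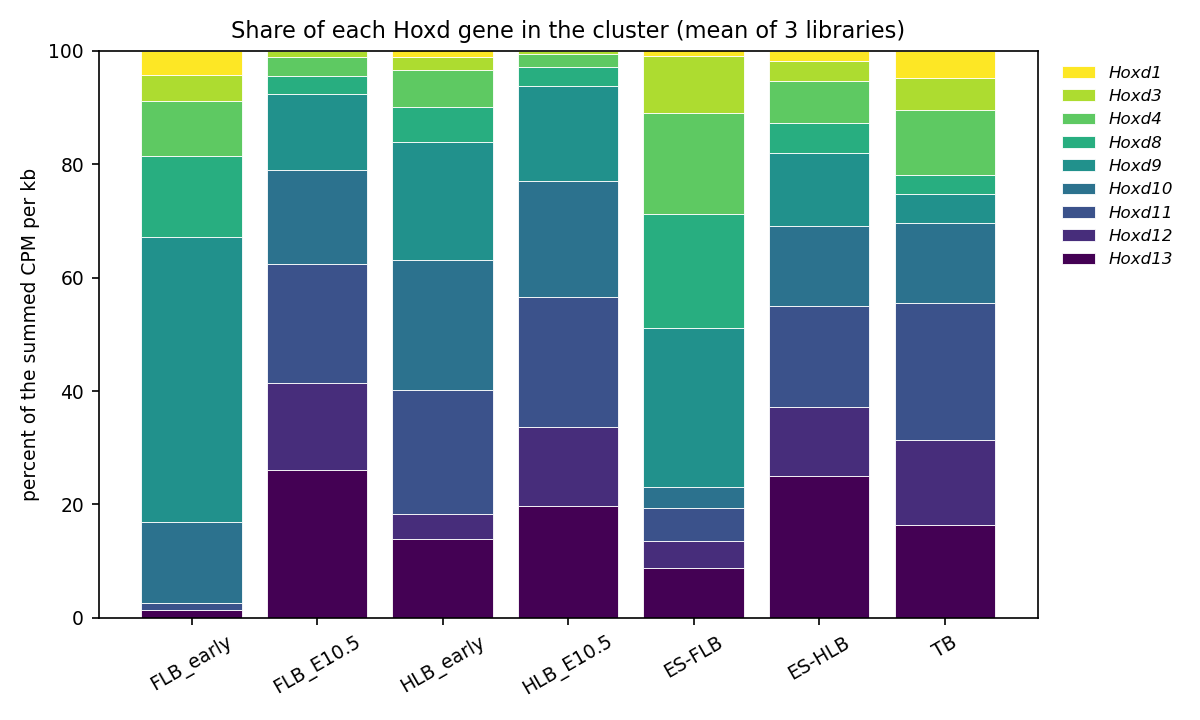
Stacked bars give the mean share of each Hoxd gene in the summed CPM per kb of the cluster (y axis, percent) in 7 groups (x axis, 3 libraries each). Hoxd9 takes 50.1% of the bar in the early FLB, and Hoxd11 to Hoxd13 fill 62.4% of the bar in the E10.5 FLB and 19.4% in ES-FLB against 55.0% in ES-HLB.

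Between the limbs, the early stage showed a split along the cluster. The early HLB had more Hoxd11 to Hoxd13 and less of the other genes that passed. Hoxd12 was at 21.5, 14.4 and 13.7 CPM against 1 to 4 reads per library in the early FLB (ratio from 932 and 7 reads 135, 95% interval 65.4 to 338, adjusted p = 6.20e-08). It reached the filter only through the early HLB. Hoxd11 was 13.9-fold higher, 32.6 to 39.0 CPM against 1.29 to 2.70 CPM (adjusted p = 2.37e-05), and Hoxd13 8.39-fold higher, 46.7 to 57.8 against 3.96 to 6.86 CPM (adjusted p = 8.59e-05). Hoxd9 was 2.66-fold lower in the HLB (adjusted p = 0.00150), Hoxd8 2.56-fold (adjusted p = 1.47e-05), Hoxd3 2.18-fold (adjusted p = 0.000178) and Hoxd1 3.82-fold (adjusted p = 0.00381), each without overlap of libraries. Hoxd10 and Hoxd4 did not pass (adjusted p = 0.322 and 0.150), and Hoxd4 passed without the early HLB replicate 1, its highest library (adjusted p = 2.94e-06). With all 27 libraries in 1 model Hoxd3 did not pass and Hoxd10 did (adjusted p = 0.0599 and 0.0427). Thus 7 of 9 genes passed, 3 higher and 4 lower, where 19.8% of 12410 genes did. The early FLB and the early HLB may not be of 1 age, and the part of age in these differences was not tested.

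At E10.5 every Hoxd gene that could be tested was lower in the HLB. These were 8 of 8, where 12.9% of 12714 genes were lower. The largest differences were at both ends, 3.02-fold for Hoxd3 (6.72 to 8.79 CPM in the FLB, 1.29 to 3.07 in the HLB, adjusted p = 4.94e-07), 2.46-fold for Hoxd4 (adjusted p = 6.74e-08) and 2.16-fold for Hoxd13 (153 to 167 CPM in the FLB, 69.7 to 77.5 in the HLB, adjusted p = 2.59e-21). Hoxd12 was 1.79-fold lower (adjusted p = 3.74e-14). Hoxd8, Hoxd9, Hoxd10 and Hoxd11 differed by 1.30-fold to 1.51-fold, and the libraries did not overlap for any of the 8 genes. Hoxd1 did not reach the filter, with 8 reads in the FLB and 5 in the HLB (ratio 1.52, 95% interval 0.438 to 5.90). Hoxd11 to Hoxd13 were therefore higher in the HLB at the early stage, where the ages of the limbs may differ, and lower at E10.5. The count was 8 without the truncated HLB library, and it was 1 with the deposited values and 4 with the zeros of that library kept. Hoxd10 did not pass with all 27 libraries in 1 model (adjusted p = 0.116), nor Hoxd9 with limma without trend and robust estimation (0.0562).

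**Figure D4:**
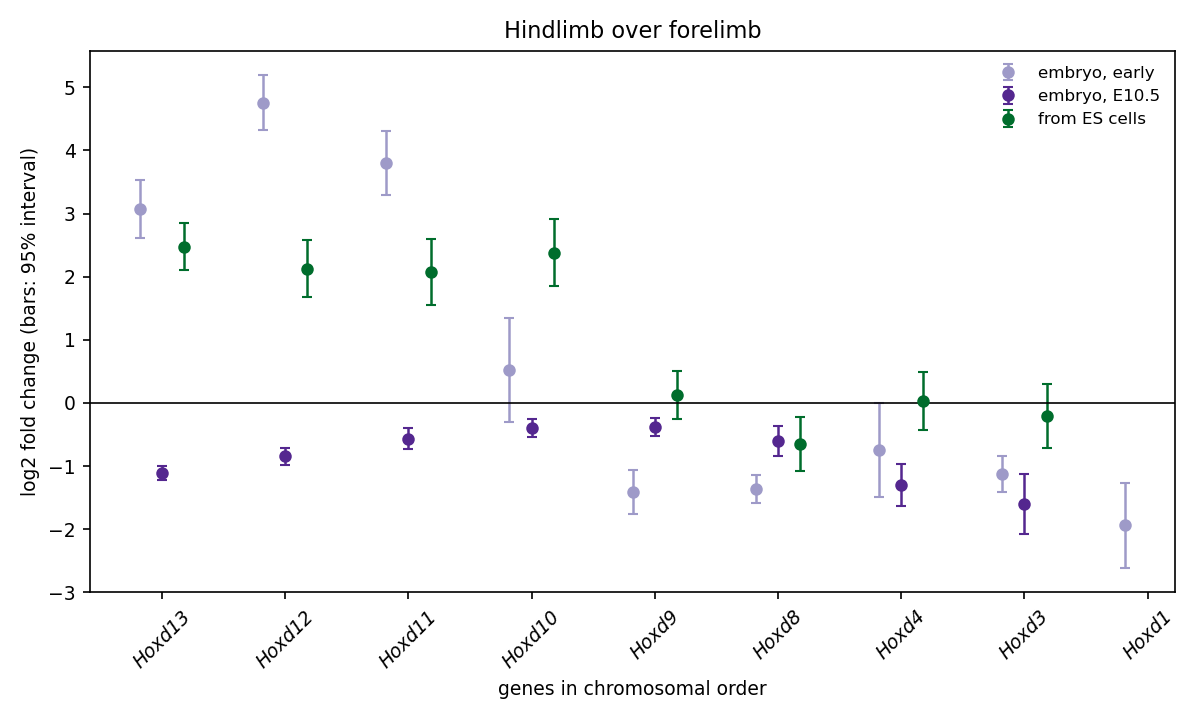
The x axis shows the Hoxd genes in chromosomal order and the y axis the log2 fold change of hindlimb over forelimb with its 95% interval, for the early buds, the E10.5 buds and the ES-derived cells. Hoxd13 lies at 3.07 in early buds, -1.11 at E10.5 and 2.47 in ES-derived cells. Hoxd1 was tested in the early buds only.

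The ES-derived cells were compared in the same way, to see whether retinoic acid and its antagonist gave cells with different Hoxd profiles. ES-HLB had more of the 4 genes from Hoxd10 to Hoxd13. Hoxd13 was at 10.8, 14.8 and 11.5 CPM in ES-HLB and at 1.47, 2.11 and 1.84 CPM in ES-FLB, a 5.55-fold difference (log2 2.47 ± 0.18, adjusted p = 1.44e-12). Hoxd12 was at 6.68, 5.88 and 5.55 CPM against 0.735, 1.05 and 1.23 CPM (log2 2.13 ± 0.22, adjusted p = 2.96e-09). For these genes all ES-HLB libraries were above all ES-FLB libraries. Hoxd10 had 3.98 to 6.02 CPM against 14 reads in ES-FLB (ratio 8.59, 95% interval 4.92 to 16.2, adjusted p = 6.03e-09) and Hoxd11 had 2.89 to 4.87 CPM against 13 reads (ratio 7.18, 95% interval 3.99 to 14.0, adjusted p = 1.14e-07).

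From Hoxd9 to Hoxd3 only Hoxd8 passed. Hoxd9 had 5.91, 6.31 and 4.22 CPM in ES-HLB and 5.52, 5.53 and 3.93 CPM in ES-FLB (log2 difference 0.12, 95% interval -0.26 to 0.50). For Hoxd4 the interval was -0.43 to 0.49 and for Hoxd3 -0.71 to 0.30. Hoxd8 was lower in ES-HLB, 3.47, 2.29 and 2.29 CPM against 4.78, 4.87 and 3.69 CPM (log2 -0.65 ± 0.21, adjusted p = 0.0205), but it did not pass without ES-HLB replicate 2 or 3 or ES-FLB replicate 1 or 2 (adjusted p between 0.0768 and 0.0900). Hoxd1 was below the filter, with 14 and 4 reads. In all, 4 of 8 genes were higher in ES-HLB and 1 was lower, where 25.0% of 13227 genes passed in either direction. Of these, Hoxd10 and Hoxd11 reached the filter only through ES-HLB. Per kb, Hoxd11 to Hoxd13 held 19.4% ± 4.48 of the cluster in ES-FLB and 55.0% ± 1.28 in ES-HLB.

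The difference between the ES-derived types was then set against that between the early limb buds, in 1 test over 12 libraries. It passed for 7 of the 9 genes, where 22.4% of 13637 genes did. The hindlimb excess of Hoxd11 and Hoxd12 was smaller among ES-derived cells, with log2 differences of -1.73 ± 0.30 and -2.62 ± 0.28 (adjusted p = 0.000221 and 8.01e-07), and that of Hoxd10 was larger by 1.86 ± 0.39 (adjusted p = 0.00592). For Hoxd13 the difference was -0.60 (95% interval -1.11 to -0.08, adjusted p = 0.0939), and it passed without the early FLB replicate 2 (adjusted p = 0.0459). Hoxd1, Hoxd3, Hoxd8 and Hoxd9 were relatively higher in the hindlimb type in vitro, by 2.66, 0.92, 0.71 and 1.53. Hoxd1 had 14 reads in ES-HLB and 4 in ES-FLB and reached the filter through the early buds. Hoxd12 had 7 reads in the early FLB. The sizes for Hoxd1 and Hoxd12 therefore depend on the pseudocount. Hoxd3 did not pass without ES-HLB replicate 1, ES-FLB replicate 2, early HLB replicate 3 or early FLB replicate 1 (adjusted p between 0.0572 and 0.0686) or with all 27 libraries in 1 model (0.305), Hoxd8 did not without early FLB replicate 2 (adjusted p = 0.0585), and Hoxd4 passed without early HLB replicate 1 (adjusted p = 0.0225).

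Against limb buds, the cluster was low in both ES groups. The summed level of the 9 genes was 20 ± 2.04 CPM in the forelimb type and 42.1 ± 4.77 CPM in the hindlimb type, compared with 294 to 507 CPM as means of the limb bud groups. All 8 genes tested were lower in ES-FLB than in the early FLB, where 34.5% of 13127 genes were lower. Of these, Hoxd1, Hoxd10 and Hoxd11 were below 1 CPM in every ES-FLB library and reached the filter only through the early FLB. Hoxd9 had 5.52, 5.53 and 3.93 CPM in ES-FLB, 32.6-fold below the early FLB (adjusted p = 4.56e-08), and Hoxd10 was lower by a ratio of 76.0 (14 against 2531 reads, 95% interval 45.2 to 139, adjusted p = 1.37e-06). Hoxd1 had 4 reads against 735 (ratio 77.2, 95% interval 30 to 284, adjusted p = 5.20e-12). Hoxd8, Hoxd4 and Hoxd3 were 12.7-fold, 9.84-fold and 7.67-fold lower. Hoxd13 was 2.67-fold lower (adjusted p = 6.74e-06), and Hoxd11 2.51-fold (adjusted p = 8.11e-05, or 0.00144 and 0.00141 without early FLB replicate 1 or 2, which is above the threshold of 0.001). Hoxd12 was outside the test, with 24 reads in ES-FLB and 7 in the early FLB (higher in ES-FLB by a ratio of 8.16, 95% interval 3.41 to 22.4).

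In ES-HLB all 9 genes were lower than in the early HLB, where 31.4% of 13210 genes were lower. Among them, Hoxd1 reached the filter only through the early HLB. The gaps were widest in the middle of the cluster, 11.3-fold for Hoxd9 and 11.2-fold for Hoxd10 (3.98 to 6.02 CPM against 55.7 to 66.6 CPM, adjusted p = 1.49e-11), and narrowest for Hoxd12, 2.56-fold (5.55 to 6.68 CPM against 13.7 to 21.5 CPM, adjusted p = 2.01e-06). Hoxd13 was 4.04-fold lower and Hoxd11 8.32-fold lower. Hoxd1 passed (3.29-fold, adjusted p = 0.000175) but not without any 1 of the ES-HLB libraries (adjusted p between 0.00103 and 0.00187).

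The comparison with E10.5 buds gave the same direction. In ES-FLB 8 of 8 genes were lower than in the E10.5 FLB, where 26.3% of 13269 genes were lower, and the gap at the Hoxd13 end was wide. Hoxd10 and Hoxd11 reached the filter only through the E10.5 FLB. Hoxd13 was 69.8-fold lower (adjusted p = 2.04e-25), and Hoxd12 was lower by a ratio of 95.3 (95% interval 63.8 to 149). In ES-HLB 7 of 8 genes were lower than in the E10.5 HLB, where 27.8% of 13154 genes were lower, with folds of 5.82 for Hoxd13, 8.23 for Hoxd12 and 10.3 for Hoxd10. Hoxd3 did not pass, with 2.44, 2.01 and 1.81 CPM against 1.29, 3.07 and 2.68 CPM (log2 difference -0.08, 95% interval -0.62 to 0.45), and Hoxd4 was 2.02-fold lower (adjusted p = 4.29e-05, or 0.00122 without the E10.5 HLB replicate 3 and 0.0311 with all 27 libraries in 1 model). In ES-FLB against the E10.5 FLB, Hoxd3 had an adjusted p of 0.00314 in that model, above the threshold.

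Sorting sets these groups apart from the tissues. The 7 limb mesenchyme markers summed to 803 to 820 CPM in ES-FLB and 1068 to 1093 CPM in ES-HLB, against 757 to 805 CPM in the early FLB, 1031 to 1130 in the early HLB, 1136 to 1156 in the E10.5 FLB and 1429 to 1430 in the E10.5 HLB. Members of this list went different ways. Prrx1 and Hand2, the gene of the reporter, averaged 649 and 238 CPM in ES-HLB against 442 and 113 in the early HLB, whereas Tbx4 (56.8 against 139), Pitx1 (70.6 against 244), Fgf10 (17.6 against 50.8) and Prrx2 (42.5 against 94.1) were lower on average. The 5 blood markers summed to 5.16 to 8.17 and 83.8 to 158 CPM in the ES groups and to 2270 to 6684 CPM in the early limb buds, and the 6 ectoderm markers to 65.2 to 134 against 300 to 434 CPM, with Fgf8 of the ridge at 0.0819 and 1.02 CPM. Of these markers, Cdh1 and Krt8 averaged 44.7 and 38.6 CPM in ES-HLB, against 60.6 and 46.4 CPM in the early HLB. In the E10.5 HLB Cdh1 and Krt8 averaged 47.3 (2 libraries) and 28.9 CPM. Trp63, Epcam, Krt18 and Fgf8 averaged 4.17, 15.1, 24.8 and 1.02 CPM in ES-HLB. Their means in the E10.5 HLB were higher, at 37.2, 40.3, 30.6 and 39.9 CPM. The sorted cells thus held some epithelial RNA. The 5 neural tube markers, below 1 CPM in sum in every limb bud library, were at 11.0 to 28.3 CPM in the ES groups. Sox2 was the highest of them, at 8.97 CPM on average in ES-FLB and 23.5 in ES-HLB. Sox1 averaged 1.21 and 1.32 CPM and Nkx6-1 2.49 and 0.921 CPM. Pax6 and Olig2 were close to 0, at means between 0.0409 and 0.219 CPM. The part of these differences in the Hoxd values was not tested.

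**Figure D5:**
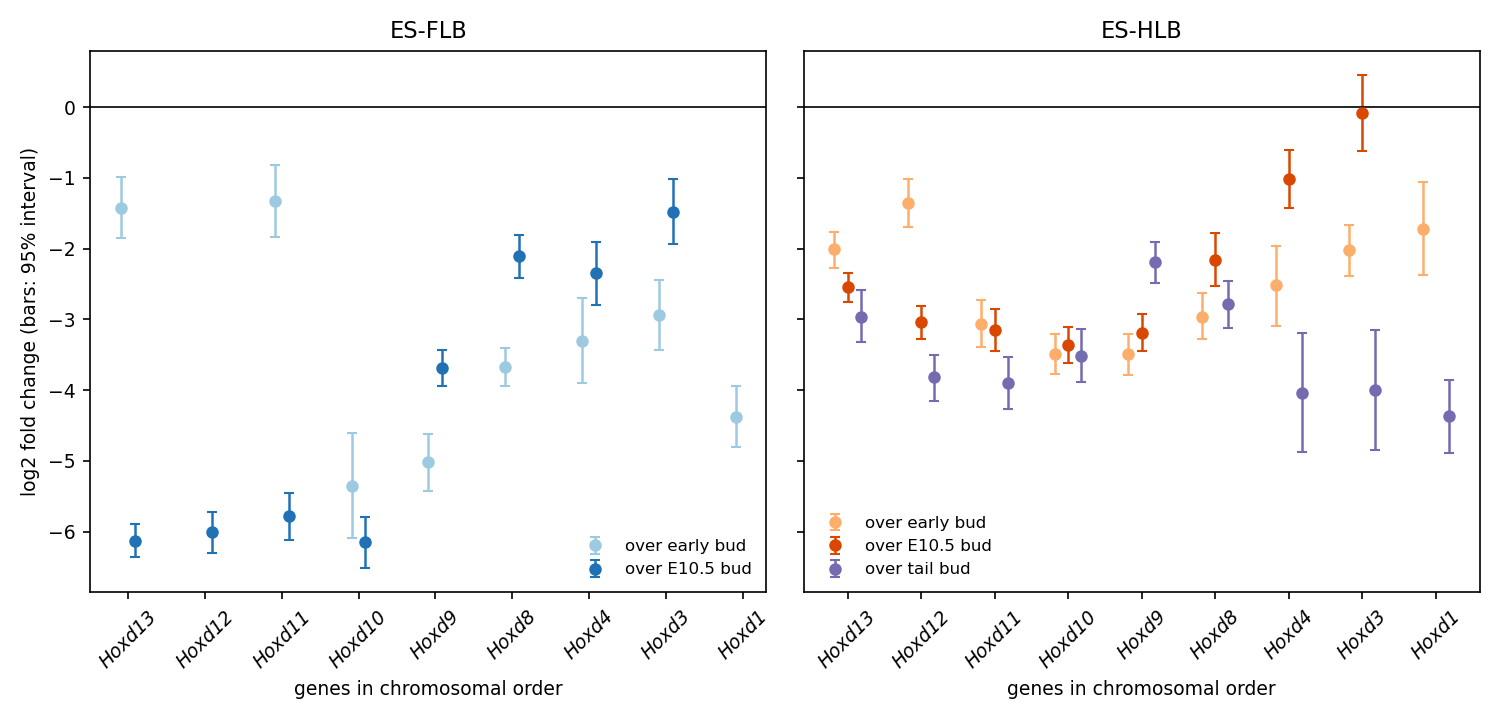
The x axes show the Hoxd genes in chromosomal order and the y axis the log2 fold change of ES-FLB (left) or ES-HLB (right) over embryonic groups, with 95% intervals. All points lie below 0, and the interval of Hoxd3 in ES-HLB over the E10.5 HLB, -0.62 to 0.45, spans it.

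Among E10.5 tissues, TB, which forms the posterior trunk and tail, held the whole cluster at a level close to that of the FLB, 499 ± 13.4 CPM in sum. Compared with the E10.5 HLB, 6 of 9 genes were higher and 1 was lower, where 41.8% of 14465 genes passed in either direction. The Hoxd1 end differed most. Hoxd1 was at 21.2, 21.5 and 22.2 CPM in TB, against 5 reads in the HLB (ratio 71.7, 95% interval 30.5 to 222, adjusted p = 7.63e-17). Hoxd3 was at 45.6, 36.5 and 40.1 CPM, 15.1-fold higher (adjusted p = 1.16e-07), and Hoxd4 at 90.4, 60 and 62.3 CPM, 8.11-fold higher (adjusted p = 5.16e-06). Hoxd8, Hoxd11 and Hoxd12 were higher by 1.54-fold to 1.72-fold. Hoxd9 was 2.00-fold lower in TB, 26.1 to 27.4 CPM against 50.0 to 56.2 CPM (adjusted p = 3.56e-07). Hoxd10 did not pass (95% interval -0.22 to 0.53), nor did Hoxd13 (93.0 to 102 CPM against 69.7 to 77.5 CPM, adjusted p = 0.0621 with all 27 libraries in the fit and 1.05e-06 with the 6 compared alone). TB carries neural tube and somite cells too, with 122 to 131 CPM of neural tube markers, and their part was not tested. ES-HLB was lower than TB in all 9 genes, where 36.5% of 14465 genes were lower, by 4.58-fold for Hoxd9 up to 16.4-fold for Hoxd4 among genes with at least 30 reads in both groups.

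In BA and Ca the cluster was nearly silent. Its sum was 3.59 ± 2.19 CPM in BA and 2.68 ± 1.25 CPM in Ca. Hoxd9, Hoxd10 and Hoxd12 were listed at 0 in all 6 libraries, which at this depth allows up to 3 reads per library, and Hoxd11 had 1 read in BA and Hoxd13 3 reads in Ca. Against the E10.5 FLB, 8 of 9 genes were lower in BA, where 9.45% of 14465 genes were lower, and 9 of 9 passed as lower in Ca, where 37.5% were. In Ca the call of Hoxd1 rests on 0 reads against 8 in the FLB, and the gene entered the fit only through other groups. In both tissues the calls of Hoxd8 to Hoxd13 set 0 to 5 reads per group against means of 20.7 to 160 CPM in the E10.5 FLB. The sizes of these calls depend on the pseudocount. Some Hoxd3 and Hoxd4 was found in both tissues. Hoxd3, which did not pass in BA with the 6 libraries compared alone (adjusted p = 0.0550), had 0.228, 1.42 and 3.11 CPM in BA and 0.927, 0.853 and 2.23 CPM in Ca, and Hoxd4 had 0.114, 0.708 and 2.15 CPM and 0.530, 1.14 and 1.25 CPM. In BA both genes were lowest in replicate 1 and highest in replicate 3. Hoxd1 had 1.02, 1.18 and 0.597 CPM in BA, above the 0.334 to 0.527 CPM of the E10.5 FLB but without passing the test (adjusted p = 0.123), and was listed at 0 in the 3 Ca libraries.

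Ordered by mean level over the 9 groups, the genes fell into distinct patterns. Hoxd1, Hoxd3 and Hoxd4 were highest in TB, and the early FLB came second for each (12.9 ± 0.624, 22.4 ± 3.67 and 40.7 ± 3.82 CPM). Libraries of TB did not overlap with those of the early FLB for any of them. Hoxd8 and Hoxd9 were highest in the early FLB (62.5 ± 9.74 and 179 ± 31.8 CPM), without overlap with the next group, the early HLB for Hoxd8 and the E10.5 FLB for Hoxd9. For Hoxd9 the E10.5 FLB and the early HLB overlapped (61.3 to 75.4 and 59.9 to 71.3 CPM). Hoxd10, Hoxd12 and Hoxd13 were highest in the E10.5 FLB (74.3 ± 4.88, 95.8 ± 5.27 and 160 ± 7.00 CPM) and Hoxd11 in TB (64.9 ± 2.71 CPM). The E10.5 FLB and TB overlapped for Hoxd12 (89.9 to 100 and 86.7 to 95.7 CPM), and TB, the early HLB, the E10.5 HLB and the early FLB overlapped as neighbours for Hoxd10. ES-HLB ranked above the early FLB for Hoxd11, Hoxd12 and Hoxd13, without overlap of libraries, and below every limb bud group for Hoxd8, Hoxd9 and Hoxd10.

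Likeness between profiles is a description over 27 libraries that share groups, depth and scaling. Pearson's r on log2(scaled CPM + 0.5) was 0.984 between Hoxd13 and Hoxd11, 0.982 between Hoxd9 and Hoxd8, and 0.333 between Hoxd13 and Hoxd1. Hoxd10 was like both sides, with r = 0.922 to Hoxd13 and 0.934 to Hoxd9. Genes set to missing in the truncated E10.5 HLB library, among them the Hoxa genes on chromosome 6, were left out of the ranking. Among 9436 genes outside the cluster with a value in every library, the most alike was Zic5 for Hoxd13 (0.951), Hoxd12 (0.860), Hoxd11 (0.942) and Hoxd10 (0.943). It was Sp8 for Hoxd9 (0.940) and Hoxd8 (0.948), Gm16702 for Hoxd4 (0.946) and Hoxd3 (0.907) and Syt7 for Hoxd1 (0.920). Hoxb1 was among the 3 most alike for Hoxd1 (0.916) and Hoxd3 (0.845).

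Hox genes of the same groups in the other clusters gave a picture to set beside these values. Between the FLB stages 4 of 17 tested paralogues rose and 10 fell, where 42.8% of all genes passed, with a median of -1.30 on the log2 scale. Hoxa13, the partner of Hoxd13 in the digits, rose by 4.76 ± 0.20, and Hoxb1 and Hoxb9 fell by 4.90 and 4.23. Hoxa13 averaged 0.0874 CPM in the early FLB and Hoxb1 0.229 CPM in the E10.5 FLB, so the sizes for both depend on the pseudocount. Between the HLB stages 2 of 17 rose and 6 fell, where 8.37% of all genes passed, and the Hoxa13 rise was 1.71 ± 0.20, with its values in the truncated library missing. The early limb buds differed in 14 of 17 paralogues, 6 higher and 8 lower in the HLB, where 19.8% of all genes passed. Hoxc10, a gene of the hindlimb level, was 7.44 ± 0.11 higher on the log2 scale, with 0.123 ± 0.0286 CPM in the early FLB and 108 ± 6.79 CPM in the early HLB. Its size depends on the pseudocount too. At E10.5 7 of 17 were higher in the HLB and 5 lower, whereas all 8 Hoxd genes tested were lower. The share over all genes is given here for the lower direction only, 12.9%. Among ES-derived cells 7 of 16 were higher and 8 lower in ES-HLB, where 25.0% of all genes passed, and Hoxa11 was higher by 2.48 ± 0.10.

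Genes next to the cluster were abundant in every tissue or close to 0. Of 11 neighbours and RNAs of the locus listed, 8 had values and 6 were abundant enough to test. Lnp, the gene beyond Evx2, was at 36.4 to 51.9 CPM as means of the 9 groups, and Evx2, the homeobox gene beside Hoxd13, was at or below 1.27 CPM on average in every group and at 0 in the early FLB. None of the 6 differed between the early buds or between the ES-derived types, where 19.8% and 25.0% of all genes passed. Between the E10.5 buds 2 were higher and 1 was lower in the HLB, where 12.9% of all genes were lower and the share that was higher is not given. Between the FLB stages 3 fell, where 42.8% of all genes passed in either direction. Mtx2 fell by 0.76 ± 0.07, Atp5g3 by 0.40 ± 0.05 and Nfe2l2 by 0.31 ± 0.07 on the log2 scale.

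Genes of the Sonic hedgehog pathway and the ridge, which act in the posterior bud and distal outgrowth, were counted between the FLB stages. Of 13 tested, 6 rose and 2 fell, where 42.8% of all genes passed, and the largest rises were those of Shh (3.64 ± 0.30, adjusted p = 2.60e-07) and Gli1 (3.51 ± 0.12, adjusted p = 8.18e-14). Between the HLB stages 1 of 14 rose, Ptch1 (0.79 ± 0.09), and 1 fell, Fgf8, where 8.37% of all genes passed. Shh had 2.42 ± 1.29 CPM in the early HLB and 11.2 ± 3.69 (n = 2) in the E10.5 HLB (log2 2.06 ± 0.38, adjusted p = 0.00417, above the threshold of 0.001), and the difference between its stage effects in the limbs did not pass (adjusted p = 0.0702). Shh was at 0.597 ± 0.532 CPM in the early FLB and 12.1 ± 0.469 in the E10.5 FLB. Gli1, a direct target of the pathway, averaged 147 ± 5.26 CPM in the forelimb type and 67.4 ± 6.82 CPM in the hindlimb type, while Hoxd10 to Hoxd13 were higher in ES-HLB. Of 13 genes of this list 4 were higher in ES-HLB and 8 lower, where 25.0% of all genes passed.

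Other lists gave counts of their own. Among the 11 proximal homeobox and retinoic acid genes, 1 rose and 6 fell between the FLB stages (42.8% of all genes passed), and Aldh1a2, which makes retinoic acid, fell by 2.61 ± 0.10 while Cyp26b1, which breaks it down, rose by 2.02 ± 0.05. Between the HLB stages 1 rose and 2 fell (8.37% of all genes). In ES-HLB against ES-FLB, 2 were higher and 5 lower (25.0% of all genes), with Aldh1a2 at a log2 difference of -2.43 ± 0.06. Of 8 genes upstream of posterior Hox genes in the trunk, all were tested in TB against the E10.5 HLB, and 5 were higher and 1 lower (41.8% of all genes), with T higher by 7.47 ± 0.29 and Cdx2 by 5.52 ± 0.32. Of 10 Polycomb and Trithorax genes, 4 rose and 2 fell between the FLB stages, 0 passed between the HLB stages, and 1 was lower in ES-HLB than in ES-FLB, where the shares over all genes were 42.8%, 8.37% and 25.0%. The largest of these FLB changes was Cbx8, by 1.47 ± 0.15. These lists were chosen with results of the same libraries known and are given as counts alone.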

How the data were processed

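RNA-seq of 27 mouse libraries was analysed, 3 in each of 9 groups, with groups and replicate numbers from the sample labels. The authors made stranded mRNA libraries, mapped reads to mm10, estimated reads per gene with Cuffdiff (HISAT2 2.0.4, Cufflinks 2.1.1 and edgeR 3.16.2 are named in the submitters' processing notes) and deposited CPM, which sum to 1000000 in each library. The deposited CPM were scaled here by an unweighted trimmed mean of log ratios (30% of ratios and 5% of intensities trimmed at each end). Values lost from the truncated E10.5 HLB library were set to missing by chromosome. A gene entered a test when 3 of the libraries compared reached 1 CPM, and the fit ran over all such genes on log2(scaled CPM + 0.5) with limma 3.58.1 (variance trend, robust) in R 4.3.3, with the Benjamini-Hochberg correction taken across every gene of the fit. A fold change is thus on the log2(CPM + 0.5) scale and understates low genes. A gene near 0 in a group could enter a test through the group where it was high. Thresholds were an adjusted p of 0.001 for stages and for ES-derived cells against limb buds, and 0.05 elsewhere. These thresholds were set for this work, and the study's methods give none for its RNA-seq tests. At 0.05 in place of 0.001, Hoxd9 (0.00114) would also pass between the FLB stages, and Hoxd9 (0.00762) and Hoxd4 (0.0157) between the HLB stages. Comparisons with TB, BA and Ca used all 27 libraries in the fit and the filter, the others those compared. Comparisons share libraries and are not independent of each other.

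Reads per library and of single low genes were derived from the spacing of low values (92.3% to 92.6% of values whole within 0.02 reads in the early limb buds, 98.6% to 98.9% elsewhere), and ratios of low genes have exact conditional 95% intervals. Because these shares differ between groups and the counting gave fractions, no count test was run. No 2 libraries of a group were identical. The fit was tested on simulated data. Positions and transcript lengths came from GENCODE M21 and RefSeq (GRCm38), for 9 of 9 genes. Python 3.11.15, numpy 2.4.6, pandas 2.3.3 and matplotlib 3.10.9 were used.

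The genes, lists, tests and thresholds were chosen with earlier results of these data known. All 9 genes are named. From other lists the genes named have the largest log2 fold changes past the threshold, at most 3 per comparison (1 such gene is not reported here), and a few levels (Evx2, Lnp, Shh, Hoxc10, Gli1 and the tissue markers) were added after their values were seen. Haglr, Haglros and Gm14396 were not analysed here. Alternatives were other scaling, pseudocounts, filters and models, the replicate number as a block, and leaving out each library.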

Additional observations from a re-analysis of the deposited data

Results flagged for a closer look

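Between the limbs, the effect of stage (E10.5 over early) differed by a test of the difference itself for 6 genes. The log2 difference, HLB minus FLB, was -4.36 for Hoxd11, -5.60 for Hoxd12, -4.18 for Hoxd13, 1.67 for Hoxd1, 0.76 for Hoxd8 and 1.04 for Hoxd9. Values of Hoxd12 in the early FLB and of Hoxd1 in the E10.5 buds rest on few reads, so these 2 sizes depend on the pseudocount.

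Between ES-derived cells and early limb buds, the effect of limb type (hindlimb over forelimb) differed by the same kind of test for 7 genes. The log2 difference, in vitro minus in vivo, was 2.66 for Hoxd1, 0.92 for Hoxd3, 0.71 for Hoxd8, 1.53 for Hoxd9, 1.86 for Hoxd10, -1.73 for Hoxd11 and -2.62 for Hoxd12. All of these used the early limb buds, whose age in the labels and in the figure legend of the study do not match, and the part of age in them was not tested. Values of Hoxd1 in the ES-derived cells and of Hoxd12 in the early FLB rest on few reads, so the sizes for Hoxd1 and Hoxd12 depend on the pseudocount.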

How the results depend on the processing

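Of 2176 fold changes of Hoxd genes under the alternatives, 2074 kept direction and side of the threshold, 74 no longer passed, 21 newly passed and 7 turned sign. Of 252 counts, 241 were within 1.5 times the reported one. For the HLB against the FLB at E10.5 (8 genes reported), the count was 1 with values as deposited and 4 with the truncated library as listed. For the HLB stages (5 reported) it was 0 with values as deposited, 0 with the truncated library as listed, 0 with limma without trend and robust estimation, and 2 without a filter on low values. For ES-HLB against ES-FLB (5 reported) it was 2 with a filter at 5 CPM, which left 3 Hoxd genes to test. In the truncated library the deposited CPM are relative to a smaller set of genes, and for the other settings the cause was not tested. Leaving out 1 library gave 1 to 6 for the HLB stages, 8 to 8 for the limbs at E10.5 and 4 to 5 for the ES-derived types.

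Signs turned only for values that did not pass. Hoxd10 between the HLB stages was 0.18 with values as deposited. For ES-HLB against ES-FLB, leaving out 1 library gave -0.27 to 0.20 for Hoxd4 (-0.09 without ES-HLB replicate 2, the lowest without ES-FLB replicate 2), -0.46 to 0.02 for Hoxd3 (the highest without ES-FLB replicate 1) and -0.03 to 0.28 for Hoxd9 (the lowest without ES-FLB replicate 3). For ES-HLB against the E10.5 HLB, Hoxd3 ran from -0.39 to 0.11 (0.11 and 0.03 without the E10.5 HLB replicate 2 or 3).

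Replicate numbers are shared by the groups, but correlations of deviations between same-numbered libraries were between -0.090 and 0.127 and did not reach 0.1 in every pair, so the design and this check do not show a pairing. Each library did correlate best with its own number between the E10.5 FLB and each of the E10.5 HLB, BA and Ca, and between ES-HLB and ES-FLB, which is a hint from the data and not from the labels. With the replicate number as a block, counts went from 7 to 8 between the early limbs, from 5 to 6 between the HLB stages, from 7 to 8 for in vitro against in vivo and from 9 to 8 for ES-HLB against the early HLB, with the other counts equal. Depth limits Hoxd12 in the early FLB, Hoxd1 in the E10.5 buds and ES-derived cells, and Hoxd10 and Hoxd11 in ES-FLB, each at 24 reads or fewer per group.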
